A study of Rattus norvegicus with 10 samples.

Results

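Olfm1, Nrn1, Basp1, Gap43 and Nptx1 encode proteins of neurite growth and secreted or membrane-anchored proteins of synapses. Their levels are described here in 5 regions of the rat brain. All probe sets annotated to one of these symbols alone were taken, which gave 5 of the 4736 genes and 8 of the 8740 non-control probe sets: 2 for Olfm1, 1 each for Nrn1, Basp1 and Gap43, and 3 for Nptx1. The genes were proposed with their regional levels in view, so the levels and regional differences below are a description without a test. The cocaine direction of 1 Nptx1 probe set was known too, so the cocaine test of that probe set is not independent of the choice. Total RNA of cocaine-treated rats was measured on 1 array per region, for the prefrontal cortex, amygdala, nucleus accumbens, caudate putamen and ventral tegmental area, against 1 array per region from control rats treated with saline. The labels used here state no strain, age, sex, dose, route, length of treatment or pooling of tissue. The values are dChip expression indices, a model-based summary of the probes of a probe set on a linear scale.

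Growing axons and dendrites end in growth cones, where proteins attached to the inner membrane link phospholipids and calcium signals to actin. Gap43 and Basp1 are abundant proteins of this kind, and both are substrates of protein kinase C. Gap43 also binds calmodulin, and it persists in the adult brain in neurons that retain axonal plasticity. Neurons also release or anchor proteins that act at the cell surface. Nrn1 encodes neuritin, a lipid-anchored protein induced by activity that promotes growth of neurites. Olfm1 encodes a secreted glycoprotein with an olfactomedin domain, and Nptx1 a secreted pentraxin that gathers AMPA-type glutamate receptors at synapses.

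Marker transcripts set the striatum, the ventral tegmental area and the prefrontal cortex apart, while no marker that defines the amygdala was read. Drd1, a dopamine receptor of striatal projection neurons, had indices of 10904 on the cocaine array and 11001 on the saline array of the caudate putamen, and at most 3228 outside the 2 striatal regions. Penk, another transcript of these neurons, was also high in the amygdala, at 15372 with cocaine and 17900 with saline. It had 27745 and 28595 in the caudate putamen and 2457 and 2462 in the prefrontal cortex. Th, the enzyme that limits the making of dopamine, had 7544 on the cocaine array and 6363 on the saline array of the ventral tegmental area, and at most 2884 elsewhere. Cck, abundant in cortical neurons, was highest in the prefrontal cortex, at 27640 with cocaine and 28113 with saline. Ttr, a transcript of the choroid plexus, differed between arrays, at 11221 on the cocaine array and 34312 on the saline array of the caudate putamen. It was also high in the amygdala, at 29441 with cocaine and 41154 with saline, and at most 4431 in the remaining regions. The medians of the arrays lay between 2208 and 2310. The cocaine array of the prefrontal cortex had 226 exact zeros, and the saline array of that region had 18. No probe set of the 5 genes had a zero. Correlations between the arrays of a region were taken over tested probe sets above 0 on both arrays, 5064 of 5244 in the prefrontal cortex. They were 0.953 in the prefrontal cortex, 0.940 in the amygdala, 0.988 in the nucleus accumbens, 0.992 in the caudate putamen and 0.978 in the ventral tegmental area.

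RefSeq promoter windows were at hand for 2 of the 5 genes, Olfm1 and Basp1. They are shown because no windows were at hand for the other members, and a tie between sequence and regional level was not tested. The Olfm1 and Basp1 transcripts shared high levels in the prefrontal cortex and amygdala and low levels in the caudate putamen, as Nrn1 did too. Olfm1 and Basp1 parted in the ventral tegmental area. Each window holds the 250 bases before the listed start, read in the direction of the gene, in build GRCr8. Olfm1 lies at chr3:31931086-31931335 on the plus strand and Basp1 at chr2:77594298-77594547 on the minus strand. Capitals mark the GC box GGGCGG on either strand.
Olfm1: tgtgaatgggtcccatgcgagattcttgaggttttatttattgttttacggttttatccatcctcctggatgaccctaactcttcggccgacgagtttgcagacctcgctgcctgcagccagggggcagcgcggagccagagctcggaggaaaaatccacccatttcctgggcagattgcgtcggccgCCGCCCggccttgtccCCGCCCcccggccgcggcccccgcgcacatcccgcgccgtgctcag
Basp1: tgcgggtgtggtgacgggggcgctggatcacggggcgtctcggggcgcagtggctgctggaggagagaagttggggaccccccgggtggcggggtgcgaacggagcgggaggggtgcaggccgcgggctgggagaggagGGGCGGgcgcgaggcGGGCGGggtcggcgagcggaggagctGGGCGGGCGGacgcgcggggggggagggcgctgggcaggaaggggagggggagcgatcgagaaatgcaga

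The Olfm1 window held 2 GC boxes and the Basp1 window 4, the last 2 of which overlap each other. At least 1 such box was found in 30.5% of 33465 rat windows of the same length, at least 2 in 14.8% and at least 4 in 3.67%. Guanine and cytosine made up 62.4% of the Olfm1 window and 76.8% of the Basp1 window, against a median of 51.2% over all windows. Neither window held the letters of a TATA box (TATAAA, in 12.9% of all windows), of the cyclic AMP response element TGACGTCA (1.59%) or of an E-box (CANNTG, 65.5%) on either strand.

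Olfm1 was the most region-dependent transcript of the set. On probe set U03414_s_at the index in the prefrontal cortex was 18953 with cocaine and 23234 with saline, and in the amygdala 17272 with cocaine and 15793 with saline. In the nucleus accumbens it was 7801 with cocaine and 7239 with saline. These 2 cortical and amygdala pairs stood above all other arrays, and the accumbens pair stood between them and the rest. The caudate putamen had 4758 with cocaine and 4613 with saline, and the ventral tegmental area 4170 with cocaine and 4454 with saline. No 2 neighbouring regions overlapped, although the caudate putamen exceeded the ventral tegmental area by only 1.09-fold. In the fit over all arrays, the prefrontal cortex differed from the mean of the other 4 regions by 1.57 ± 0.10 (log2 difference ± SE) and the amygdala by 1.14 ± 0.10, the caudate putamen by -1.14 ± 0.10 and the ventral tegmental area by -1.29 ± 0.10.

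The second Olfm1 probe set, U03416_at, gave the same cortical and amygdala excess but another order at the low end. Its index in the prefrontal cortex was 12202 with cocaine and 16957 with saline, and in the amygdala 14838 with cocaine and 13253 with saline, so those 2 regions overlapped. The nucleus accumbens had 6390 with cocaine and 6172 with saline. In the ventral tegmental area the index was 5102 with cocaine and 4939 with saline, and in the caudate putamen 2586 with cocaine and 2470 with saline. The ventral tegmental area thus stood 1.99-fold above the caudate putamen on this probe set, while on U03414_s_at the caudate putamen was the higher. The probe sets correlated with r = 0.923 over the 10 arrays, which share region and treatment. The log2 difference of the caudate putamen from the mean of the other 4 regions was -1.82 ± 0.12 (SE) on U03416_at. The files do not say which Olfm1 transcripts each probe set detects.

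**Figure D1:**
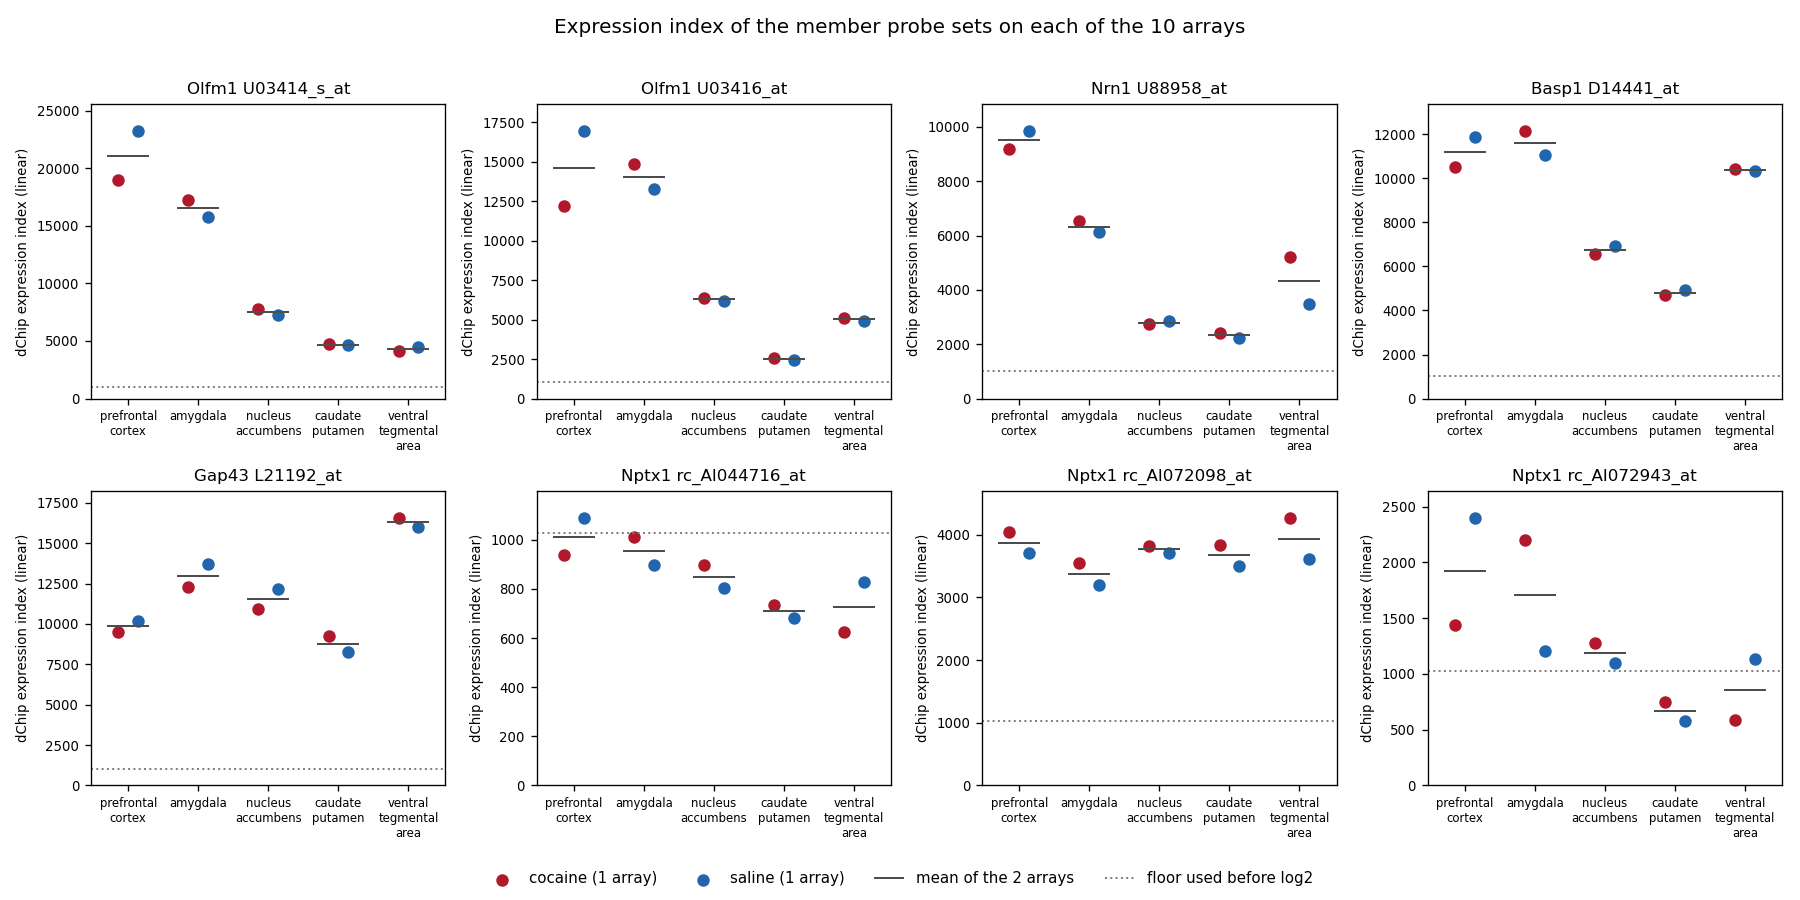
Expression index (linear scale) of the 8 probe sets by region, with the cocaine array in red on the left, the saline array in blue on the right, the mean of the 2 arrays as a bar and the floor of 1028 as a dotted line. Both Olfm1 probe sets and Nrn1 were high in the prefrontal cortex and amygdala, Gap43 was highest in the ventral tegmental area at 16565 and 16018, and Nptx1 rc_AI072098_at stayed between 3200 and 4268 on all arrays.

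Nrn1 followed the cortical and amygdala pattern with a higher level in the ventral tegmental area. Its probe set U88958_at had an index of 9186 with cocaine and 9850 with saline in the prefrontal cortex, and 6541 with cocaine and 6120 with saline in the amygdala. The prefrontal cortex exceeded the amygdala by 1.5-fold, without overlap. The nucleus accumbens had 2728 with cocaine and 2846 with saline, and the caudate putamen 2423 with cocaine and 2239 with saline, the lowest pair. The ventral tegmental area lay between the groups, at 5196 with cocaine and 3489 with saline, and its arrays were the farthest apart of any region. The log2 difference from the mean of the other 4 regions was 1.39 ± 0.13 (SE) in the prefrontal cortex, 0.65 ± 0.13 in the amygdala, -0.83 ± 0.13 in the nucleus accumbens and -1.15 ± 0.13 in the caudate putamen. In the ventral tegmental area it was -0.06 ± 0.13, and it turned from -0.34 without the cocaine array to 0.22 without the saline array.

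Basp1 was nearly level over 3 regions and lower in the striatum. On D14441_at the amygdala had an index of 12151 with cocaine and 11057 with saline, and the prefrontal cortex 10534 with cocaine and 11865 with saline. The ventral tegmental area had 10434 with cocaine and 10339 with saline. The amygdala and prefrontal cortex overlapped, and the ventral tegmental area lay just below them, 1.08-fold under the prefrontal cortex. The nucleus accumbens had 6576 with cocaine and 6934 with saline, and the caudate putamen 4685 with cocaine and 4908 with saline. The striatal regions did not overlap with each other or with the rest, and the caudate putamen differed from the mean of the other 4 regions by -1.03 ± 0.08 (log2 difference ± SE).

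Gap43 ran in a different order from the other members. On L21192_at the ventral tegmental area had the highest index, 16565 with cocaine and 16018 with saline, followed by the amygdala at 12261 with cocaine and 13713 with saline. The nucleus accumbens had 10923 with cocaine and 12179 with saline. The prefrontal cortex had 9512 with cocaine and 10179 with saline, and the caudate putamen 9235 with cocaine and 8244 with saline. No neighbouring regions overlapped, but the steps below the ventral tegmental area were small, between 1.12-fold and 1.17-fold. The ventral tegmental area differed from the mean of the other 4 regions by 0.61 ± 0.09 (log2 difference ± SE), the prefrontal cortex by -0.30 ± 0.09 and the caudate putamen by -0.51 ± 0.09. The highest array exceeded the lowest by 2.01-fold for Gap43, against 2.59-fold for Basp1, 4.40-fold for Nrn1 and 5.57-fold and 6.87-fold for the Olfm1 probe sets.

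The brightest Nptx1 probe set disagreed with the dimmer ones. The brightest, rc_AI072098_at, had a flat profile with a lowest index of 3200, a median of 3709 and a highest of 4268, and neighbouring regions in its order overlapped. The dimmer rc_AI072943_at had 1439 with cocaine and 2398 with saline in the prefrontal cortex, 2202 with cocaine and 1205 with saline in the amygdala, and 1281 with cocaine and 1096 with saline in the nucleus accumbens. Its indices were 747 with cocaine and 581 with saline in the caudate putamen, and 585 with cocaine and 1134 with saline in the ventral tegmental area, so 3 of its 10 values lay below the floor of 1028 that was applied before log2. The third, rc_AI044716_at, ranged from 627 to 1090 with 9 values below that floor. Both dimmer probe sets had the same order of region means. It ran from the prefrontal cortex through the amygdala, nucleus accumbens and ventral tegmental area to the caudate putamen. Their log2 indices, before the floor was applied, correlated at r = 0.980 over the 10 arrays. Most values of rc_AI044716_at lay below the floor, which limits what this shows. Only the bright one was among the 5244 probe sets that entered the tests, those with the highest mean indices (60% of all), so 6 of the 8 probe sets were tested.

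**Figure D2:**
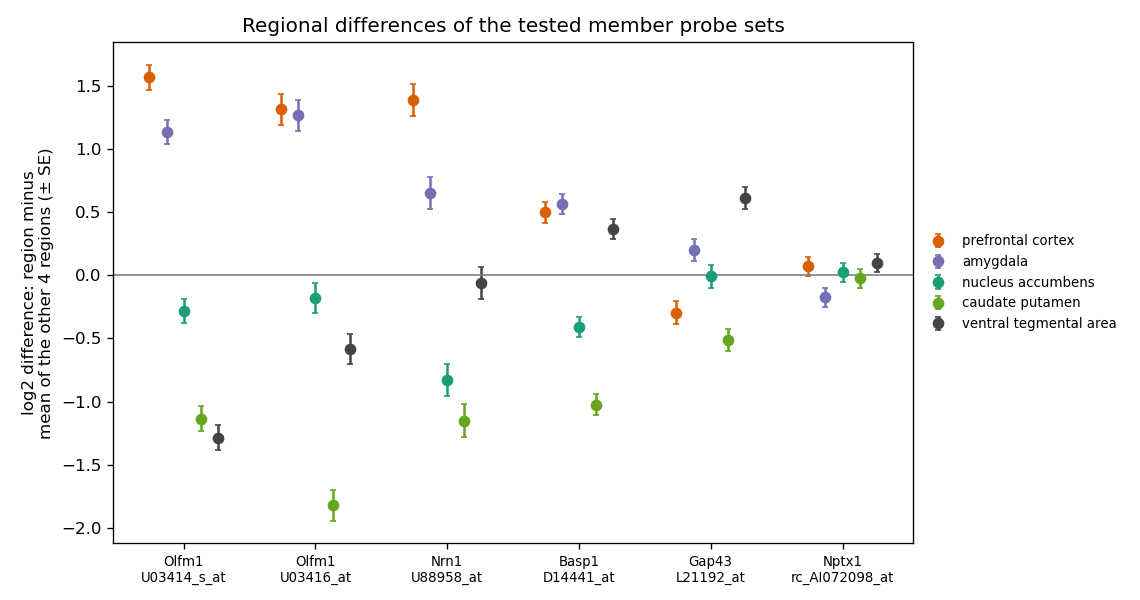
Log2 difference of each region from the mean of the other 4 regions (points, bars ± SE from limma) for the 6 tested probe sets, shown without a test because the genes were chosen with these values known. Olfm1 and Nrn1 spread widest, Gap43 has its highest point in the ventral tegmental area at 0.61, and Nptx1 lies between -0.17 and 0.10.

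All 4 arrays of the prefrontal cortex and amygdala stood above the other 6 for 4 of the 6 tested probe sets, both Olfm1 probe sets, Nrn1 and Basp1. Of 4894 probe sets with a value on every array, 1.61% did so. The margin was slight for Basp1, with 10534 on the prefrontal cocaine array against 10434 on the cocaine array of the ventral tegmental area. Both caudate putamen arrays stood below the other 8 for Olfm1 U03416_at, Nrn1, Basp1 and Gap43, which 8.56% of all probe sets did. Both arrays of the ventral tegmental area stood above the other 8 for Gap43, as 13.2% of all probe sets did. Those shares are background for genes chosen by these levels and carry no test. Both prefrontal arrays stood above the other 8 for Olfm1 U03414_s_at and Nrn1, as 2.92% of all probe sets did. Between members, Olfm1 U03414_s_at correlated over the 10 arrays with Nrn1 at r = 0.817 and with Basp1 at r = 0.619, but with Gap43 at r = -0.19. With the dimmer Nptx1 probe sets it reached r = 0.857 (rc_AI072943_at) and r = 0.885 (rc_AI044716_at), partly on values below the floor. With the bright rc_AI072098_at it had r = -0.254. Which Nptx1 transcripts each probe set detects could not be checked.

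Markers of cell classes varied over the same regions. The summed index of 5 tested markers of cortical and amygdala excitatory neurons (12 listed) was 93503 with cocaine and 94303 with saline in the prefrontal cortex and 75400 with cocaine and 82602 with saline in the amygdala. It was between 52255 and 58671 in the striatal regions, and 32428 with cocaine and 29480 with saline in the ventral tegmental area. None of these markers was at 0 on any array. Nrgn, which is also in the growth cone list below, made up much of the excitatory sum. On the cocaine arrays it had 39827 in the prefrontal cortex and 31573 in the caudate putamen. In the caudate putamen 1 of these 5 markers, Nrgn, was called higher and 2 lower, against 1.74% and 2.35% of all probe sets. The sum of 8 general neuronal markers (12 listed) was lowest in the caudate putamen, at 65676 with cocaine and 65633 with saline, against 76187 to 105729 in the other regions, with Syn2 at 0 on some arrays. The 8 tested oligodendrocyte markers (12 listed) summed to 134310 with cocaine and 143152 with saline in the caudate putamen, and to 139343 with cocaine and 124701 with saline in the ventral tegmental area, where Gap43 and Basp1 were high. They summed to 105072 with cocaine and 105707 with saline in the nucleus accumbens, 93002 with cocaine and 102710 with saline in the amygdala, and 81402 with cocaine and 88208 with saline in the prefrontal cortex. The 10 tested markers of striatal projection neurons (13 listed) summed to 57287 with cocaine and 59450 with saline in the amygdala. They summed to 31711 and 29873 in the prefrontal cortex and to 130608 and 132391 in the caudate putamen. In such bulk tissue, fewer cells of a type and less RNA per cell cannot be told apart, and the part of cell makeup in the members' levels was not tested.

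The genes most like each member were taken by Pearson correlation of log2 index over the 10 arrays, among 3088 genes. For Olfm1 these were Stx1a, a membrane protein of vesicle fusion, at r = 0.979, the diacylglycerol kinase Dgkz at r = 0.965 and the neuropeptide precursor Cck at r = 0.948. For Nrn1 they were the calmodulin kinase kinase Camkk1 at r = 0.974, Cxxc5 at r = 0.965 and the vesicle fusion protein gene Snap25 at r = 0.949. Basp1 was closest to the GABA-B receptor subunit Gabbr2 at r = 0.983, the calcium sensor Vsnl1 at r = 0.971 and Ywhag at r = 0.970. Gap43 was closest to Uchl1, a deubiquitinating enzyme abundant in neurons, at r = 0.987, to Cdc37 at r = 0.955 and to Mif at r = 0.952. Uchl1 had its highest indices in the ventral tegmental area as Gap43 did, 27450 with cocaine and 25005 with saline, and its lowest in the caudate putamen, 12610 with cocaine and 12860 with saline. For the bright Nptx1 probe set the closest genes reached less, Ctla4 and Usp19 at r = 0.861 each and Defb4 at r = 0.846. The arrays share region and treatment, so these correlations are descriptions.

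Related genes were read from 3 lists, in a fit that sets 1 region against the average of the remaining ones, in limma. The lists were drawn up with earlier results of these data known, so the regional p-values of their genes are no independent support. Of 46 growth cone and cytoskeleton genes, 31 were tested. In the caudate putamen 5 of them fell and 1 rose, against backgrounds of 2.35% lower and 1.74% higher calls over all probe sets, and the list had a median log2 difference of -0.23 against -0.04 over all probe sets tested. Tubb5, a beta tubulin, was 1.69-fold lower there (limma adjusted p = 0.00236), with 10284 with cocaine and 9822 with saline, while all arrays of the other regions lay between 14069 and 19954. Beta tubulin genes are alike in sequence, so it is uncertain which of them the probe set detects. Stmn1, a microtubule-destabilizing protein, was 1.54-fold lower (limma adjusted p = 0.0291). Nrgn, which binds calmodulin as Gap43 does, rose instead by 1.59-fold in the caudate putamen (limma adjusted p = 0.0086).

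In the ventral tegmental area 4 genes of this list rose and 3 fell, against backgrounds of 7.81% and 3.23%. Nrgn was 4.05-fold lower there (limma adjusted p = 3.3e-05), at 6768 with cocaine and 7392 with saline. Another beta tubulin gene, Tubb2b, was 1.62-fold higher and Dclk1, a microtubule-binding kinase, 1.57-fold lower (limma adjusted p = 0.0055 and 0.0145). In the prefrontal cortex, where 1.36% of probe sets were called higher and 3.68% lower, Nrgn was the only call of the list, 2.09-fold higher. It was also the only one in the amygdala, 1.55-fold higher, against 0.401% called higher and 0.21% lower there (limma adjusted p = 0.0013 and 0.0359). No gene of the list was called in the nucleus accumbens, where 0.458% of all probe sets were called higher and 0.0763% lower, and 3 of the 31 had an unadjusted p under 0.05, as 274 of 5244 probe sets did. Of the 2 calmodulin-binding proteins, Nrgn thus had its lowest levels in the region where Gap43 had its highest.

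Of 56 secreted and membrane-anchored synaptic and axonal proteins, 33 were tested. In the caudate putamen 5 fell and none rose, against backgrounds of 2.35% lower and 1.74% higher calls, with a list median of -0.18 against -0.04 over all probe sets tested. The secretory granule protein Scg2 was 1.77-fold lower, the adhesion molecule Ncam1 1.55-fold and the lipid-anchored Opcml 1.40-fold lower (limma adjusted p = 0.0329, 0.0204 and 0.0219). Scg2 had 2083 with cocaine and 2038 with saline there, above the prefrontal cortex at 1306 and 1743. The ventral tegmental area, at 7641 and 12208, raised the mean that Scg2 was set against. In the ventral tegmental area 4 rose and 1 fell, against 7.81% and 3.23% over all probe sets. Scg2 was 3.89-fold and Ncam1 1.44-fold higher, and Nell2, a secreted glycoprotein, was 1.74-fold lower (limma adjusted p = 0.000356, 0.0215 and 0.000626). In the prefrontal cortex 4 rose and 1 fell, against 1.36% and 3.68%, with the lipid-anchored Thy1 1.54-fold and Opcml 1.47-fold higher and Scg2 2.62-fold lower (limma adjusted p = 0.0417, 0.0148 and 0.0044). In the amygdala, where 0.401% of probe sets were called higher, Nell2 alone was called, 1.48-fold higher (limma adjusted p = 0.0243), and in the nucleus accumbens none was, with 5 of 33 at an unadjusted p under 0.05, beside 274 of all 5244 probe sets. Ncam1 and Thy1 were at 0 on the cocaine array of the prefrontal cortex, and these values were dropped from the fit. Thy1 in the prefrontal cortex therefore rests on the saline array alone.

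**Figure D3:**
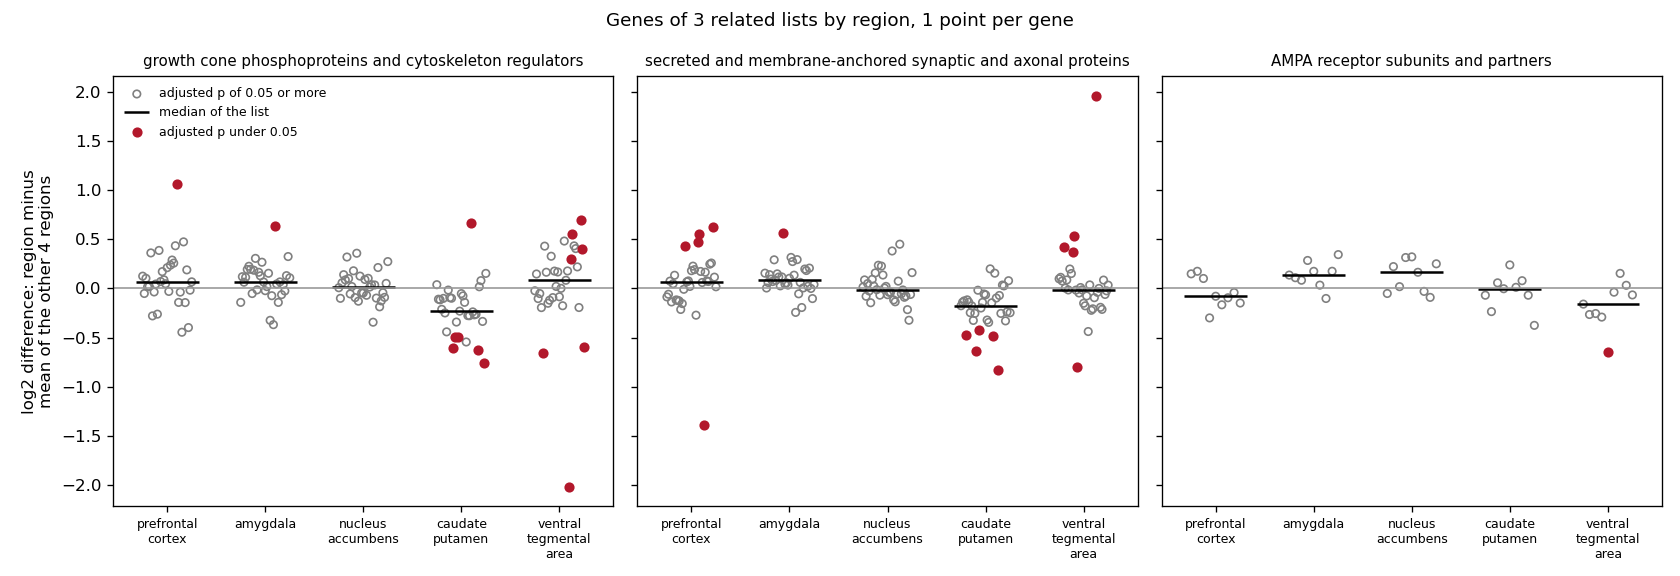
Log2 difference of each region from the mean of the other 4 regions for 31, 33 and 9 tested genes of 3 related lists, 1 point per gene, filled in red where the limma adjusted p was under 0.05, with the list's median as a bar. In the caudate putamen the medians of the first 2 lists were -0.23 and -0.18, and Nrgn at -2.02 and Scg2 at 1.96 are the outermost points in the ventral tegmental area.

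The pentraxin coded by Nptx1 gathers AMPA receptors. Of 13 receptor subunits and partners, 9 were tested and 1 was called in any region. Gria2, a receptor subunit, was 1.57-fold lower in the ventral tegmental area (limma adjusted p = 0.00174), where 3.23% of all probe sets were called lower and 7.81% higher. In the other regions these shares ran from 0.0763% to 3.68%, so 9 genes without a call there lie near background. Many list calls depended on single arrays.

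In the caudate putamen the lower calls of the first 2 lists numbered 0 and 0 without its cocaine array or without its saline array, 1 and 0 without either accumbens array, 3 and 2 without the cocaine and 3 and 1 without the saline array of the ventral tegmental area, and 9 and 9 without the saline array of the amygdala. Without the prefrontal saline array, the secreted list had 3. Of its 4 higher calls in the prefrontal cortex, 0 were made without the prefrontal saline array or either array of the accumbens or caudate putamen, and 1 without the prefrontal cocaine array or either array of the ventral tegmental area. The 4 higher growth cone calls in the ventral tegmental area became 0 when its saline array was left out, 1 when its cocaine array was, 2 without the saline array of the caudate putamen or either accumbens array, and 9 and 7 without the cocaine and the saline array of the amygdala. The 4 higher secreted calls there became 1 without any single array of the ventral tegmental area, accumbens or caudate putamen. The 3 lower growth cone calls there became 1 without the cocaine array of the ventral tegmental area or of the caudate putamen. The 1 lower secreted call became 2 without either prefrontal array and 3 without either amygdala array.

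Of the genes named from these lists, Nrgn in the ventral tegmental area and prefrontal cortex, and Scg2 and Nell2 in the ventral tegmental area, passed under all 6 other settings and with any of the 10 arrays left out. Gria2 was lost without the cocaine array and Tubb2b without the saline array of the ventral tegmental area, and Tubb5 without either array of the caudate putamen. In the caudate putamen, Nrgn was lost without either array of that region and with no filter on low values. The prefrontal Scg2 call was lost without the prefrontal cocaine array and with no filter, and Dclk1 without the cocaine array of the ventral tegmental area or of the caudate putamen and with no filter. In the amygdala, the calls of Nrgn and Nell2 were lost with zeros raised to the floor, under median scaling and with no filter. They were also lost without any single array of the caudate putamen, nucleus accumbens or ventral tegmental area, and that of Nrgn without the prefrontal saline array. The remaining named calls, Stmn1, Scg2, Ncam1 and Opcml in the caudate putamen, Ncam1 in the ventral tegmental area, and Thy1 and Opcml in the prefrontal cortex, were lost with no filter and without any single array of the caudate putamen or nucleus accumbens. Without either array of the ventral tegmental area, Opcml in the caudate putamen, Ncam1 in the ventral tegmental area and Thy1 were lost too, and without its saline array alone Stmn1 and Scg2 in the caudate putamen. Leaving out the prefrontal saline array ended the calls of Scg2 in the caudate putamen and Opcml in the prefrontal cortex, and leaving out the prefrontal cocaine array that of Thy1. Raising zeros to the floor turned Thy1 to a lower level and ended the calls of Stmn1, of Scg2 in the caudate putamen and of Ncam1 in both regions. Median scaling ended those of Stmn1, Scg2 and Opcml in the caudate putamen, and quantile normalization those of Scg2 there and of Ncam1 in the ventral tegmental area.

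The counts moved with these settings too. The lower calls of the first 2 lists in the caudate putamen were 3 and 2 with zeros raised, 2 and 1 under median scaling and 1 and 1 with no filter. Their higher calls in the ventral tegmental area were 2 and 2 after median scaling, and quantile normalization gave 2 and 1. Those of the secreted list were 2 with zeros raised and 1 with no filter. With no filter, the secreted list had 1 higher call in the prefrontal cortex.

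Cocaine was set against saline with region as a block, the comparison with 1 pair of arrays in each region. None of the 6 tested probe sets passed limma's test, and over the array 0% of 5244 probe sets did, with 69 at an unadjusted p under 0.05 (1.32%). The log2 change of cocaine over saline was -0.02 ± 0.08 (SE) for Olfm1 U03414_s_at, -0.03 ± 0.10 for Olfm1 U03416_at, 0.12 ± 0.10 for Nrn1, -0.03 ± 0.07 for Basp1 and -0.04 ± 0.07 for Gap43. Each of these had a limma adjusted p of 1.0. The signs of both Olfm1 values, of Basp1 and of Gap43 turned under quantile normalization. Without an array of the ventral tegmental area the Nrn1 change was 0.01. Without the prefrontal pair the Olfm1 changes were 0.05 on U03414_s_at and 0.08 on U03416_at.

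Nptx1 on its bright probe set was higher with cocaine in 5 of 5 regions. The indices were 4036 with cocaine and 3706 with saline in the prefrontal cortex, 3556 with cocaine and 3200 with saline in the amygdala, and 3826 with cocaine and 3712 with saline in the nucleus accumbens. They were 3832 with cocaine and 3504 with saline in the caudate putamen and 4268 with cocaine and 3605 with saline in the ventral tegmental area. The change was 0.14 ± 0.06 (log2 ± SE), with a limma adjusted p of 1.0 over all probe sets. Of all probe sets with a value on every array, 1.45% were higher in all 5 regions and 1.63% lower, and this one was known to be among them when the gene was chosen. The change therefore carries no independent test. Its unadjusted limma p was 0.0499, 1 of the 69 under 0.05 over the array. The other Nptx1 probe sets did not share the direction. On rc_AI072943_at cocaine was above saline in 3 regions and below it in 2.

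Within single regions, 1 array stands against 1 array, so the ratios have no replicate check. No tested probe set of the 5 genes reached a fold of 1.5 in any region, while 4.92% of all tested probe sets did in the prefrontal cortex, 8.89% in the amygdala, 0.229% in the nucleus accumbens, 0.153% in the caudate putamen and 1.65% in the ventral tegmental area. Nrn1 in the ventral tegmental area lay just under that fold, with cocaine 1.49-fold over saline. On the same 2 arrays the summed index of 6 dopamine neuron markers (7 listed) was 41586 with cocaine and 33838 with saline, with Nr4a2 at 0 on some array of the study, and Cck was 8504 with cocaine and 4161 with saline. Their part in the Nrn1 value was not tested.

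In the prefrontal cortex both Olfm1 probe sets had lower indices with cocaine, at 0.816-fold of saline on U03414_s_at and 0.720-fold on U03416_at. There 5 of the 6 tested probe sets lay below saline, with a median log2 ratio of -0.14 against 0.01 over all tested probe sets. In the amygdala 5 of the 6 lay above saline, with a median of 0.13 against -0.04. Basp1 followed Olfm1 in both regions, with a cortical log2 ratio of -0.17 and an amygdala one of 0.14. These 2 regions were also those whose arrays correlated least with each other, and whether the opposite ratios come from treatment or from the arrays cannot be told apart with 1 array per treatment.

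**Figure D4:**
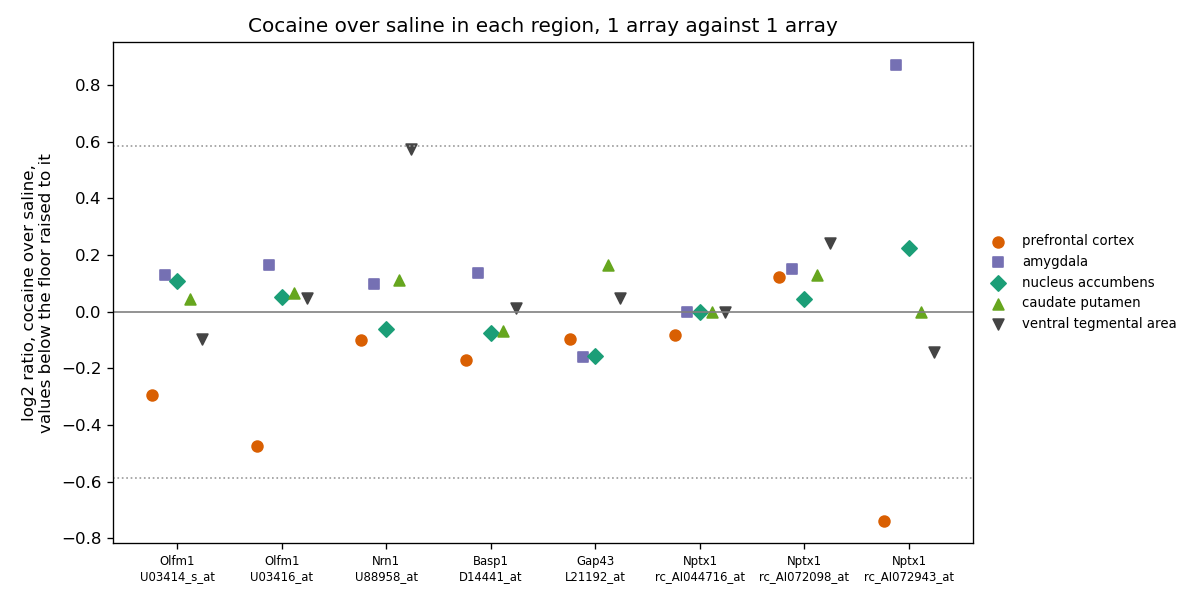
Log2 ratio of cocaine over saline in each region (1 symbol per region) for the 8 probe sets, after values below the floor were raised to it; dotted lines mark a fold of 1.5 in either direction. Only the untested Nptx1 rc_AI072943_at passes these lines, at 0.87 in the amygdala and -0.74 in the prefrontal cortex, and only Nptx1 rc_AI072098_at is above 0 in all 5 regions.

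The related lists gave no call for cocaine either. In limma, 0 of 31 growth cone and cytoskeleton genes, 0 of 33 secreted and membrane-anchored proteins and 0 of 9 AMPA receptor genes passed, and 0 of each had an unadjusted p under 0.05. The smallest p-values belonged to Mapt, which encodes tau, at -0.10 ± 0.06, Map1a at -0.10 ± 0.07 and Nefh at 0.13 ± 0.11 (log2 change ± SE) in the first list. In the second they belonged to Nrxn3, a presynaptic adhesion molecule, at -0.20 ± 0.10, the peptide-processing enzyme gene Cpe at -0.11 ± 0.06 and the axonal adhesion molecule Cntn1 at -0.13 ± 0.08. In the third they belonged to Gria2 at -0.12 ± 0.06, Nsf at -0.10 ± 0.12 and Dlg3 at 0.06 ± 0.08. All had a limma adjusted p of 1.0. The list medians were -0.03, 0.00 and -0.02, against -0.01 over all probe sets tested.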

How the data were processed

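The authors deposited 1 table of dChip expression indices, per the labels, which are intensities on a linear scale. The dChip version, the model and any scaling across arrays are not stated in the labels. Of 8799 probe sets, 59 controls were left out. Of the other 8740, 7006 had 1 gene symbol in the platform annotation, 308 several and 1426 none. Exact zeros (593 values) were taken as no value, and values under the 20th percentile of those above 0 (1028) were raised to it before log2. limma 3.58.1 (R 4.3.3) was run with its trend option, two-sided, on the 5244 probe sets highest in mean index, with Benjamini-Hochberg adjusted p under 0.05 as the threshold. Region was a block for cocaine against saline, which pairs the 2 arrays of a region. For regions, each was compared with the average of the remaining regions, with a treatment term. The fits were tested on simulated data with the same independent noise on every array, no missing values and larger changes than many named here. That check does not cover arrays of unequal spread or the smaller calls. The text names every probe set of the members, the 3 genes most like each member, and, per list, the up to 3 largest calls in each region and the 3 smallest p-values for cocaine, each gene by its brightest probe set. The members and lists were chosen with earlier results of these data known. Nothing in the labels states that arrays hold RNA of separate animals, so a p-value here reflects the spread among these arrays, which may be technical, and their number limits the precision. Alternatives changed the zeros, scaling, floor, filter, trend and block, and left out arrays.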

Additional observations from a re-analysis of the deposited data

Results flagged for a closer look

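On the dim Nptx1 probe set rc_AI072943_at, cocaine and saline stood in opposite order in 2 regions by more than 1.5-fold. The log2 ratio of cocaine over saline was 0.87 in the amygdala (2202 with cocaine, 1205 with saline) and -0.74 in the prefrontal cortex (1439 with cocaine, 2398 with saline). Each region has 1 array per treatment, and the difference between the regions was not tested.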

How the results depend on the processing

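Of the 56 changes of members with cocaine under other settings, 51 kept their direction, as did 235 of the 240 regional differences. These counts are no measure of robustness. The tested probe sets of the members had no zero and no value below the floor, so only median scaling and quantile normalization could move their values. The counts also include the 2 dimmer Nptx1 probe sets, which were not tested. Under quantile normalization the cocaine changes turned to 0.032 and 0.011 for Olfm1 U03414_s_at and U03416_at, 0.010 for Basp1 and 0.0049 for Gap43 (log2). With arrays left out they ran from -0.059 to 0.047 for Olfm1 U03414_s_at, -0.078 to 0.082 for U03416_at, -0.076 to 0.0014 for Basp1 and -0.017 to 0.097 for Dlg3, with the opposite sign where a prefrontal array was left out. The count of calls for cocaine was 0 under every setting run and with any array left out, with 69 at an unadjusted p under 0.05 on all arrays and between 26 and 392 with arrays left out. Without the region as a replicate block, which pairs the arrays, it was also 0, with 20. Calls over all probe sets numbered 264 in the prefrontal cortex, 32 in the amygdala, 28 in the nucleus accumbens, 214 in the caudate putamen and 578 in the ventral tegmental area. With zeros raised to the floor they were 149 in the prefrontal cortex, 9 in the amygdala and 18 in the accumbens, and Thy1 in the prefrontal cortex turned to -1.80 because its zero there became a low value. Median scaling gave 17 in the amygdala. Without the filter the counts were 74, 3, 10, 128 and 350 in the order above. With single arrays left out they ran from 54 (prefrontal cocaine array) to 650 (amygdala saline array) in the prefrontal cortex, 0 (caudate putamen cocaine array) to 382 (amygdala saline array) in the amygdala, 3 (accumbens saline array) to 75 (amygdala cocaine array) in the accumbens, 22 (caudate putamen cocaine array) to 505 (amygdala saline array) in the caudate putamen, and 118 (its own cocaine array) to 955 (amygdala cocaine array) in the ventral tegmental area. Where a cause is not named it was not tested. Higher and lower calls were 91 and 123 in the caudate putamen, against 94 and 85 under median scaling. They were 71 and 193 in the prefrontal cortex, against 73 and 111 under quantile normalization, and 409 and 169 in the ventral tegmental area, against 228 and 189. Of the 2 dimmer Nptx1 probe sets, rc_AI044716_at had 9 values below the floor and rc_AI072943_at had 3, which limits what they can show.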
